A study of Mus musculus with 39 samples.

Results

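Imprinted genes are transcribed mainly from the maternal or from the paternal copy, and 38 such genes were followed here through the histone marks of naive extra-embryonic endoderm (nEnd). The members were the listed imprinted genes in the mouse assembly GRCm38, all 38 of which were found among the 32093 genes annotated. For each gene, the window was the gene body with 5 kb on either side, and the promoter was the stretch from 1 kb upstream to 100 bases downstream of every annotated start site. Promoters at which H3K9me3 lay together with H3K27ac or H3K4me1 were given most attention.

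nEnd is a mouse cell culture model of the primitive endoderm, the extra-embryonic lineage of the blastocyst that forms the yolk sac. Untreated nEnd of 1 line, in which OCT4 carries the red protein mCherry, was sorted by flow cytometry on OCT4-mCherry and on PDGFRA stained with APC. The sort gave 3 populations, OCT4-mCherry single-positive cells (Oct4), double-positive cells (DP) and PDGFRA-APC single-positive cells (Pdgfra), so every group shared the same reporter line and the same lack of treatment. Histone marks were mapped by CUT&Tag, in which an antibody tethers a transposase to chromatin, for H3K4me1, H3K27ac, H3K27me3 and H3K9me3 with 3 replicate libraries per population and mark, 36 libraries in all. A further 3 control samples with IgG had no peak list and were not analysed here.

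At an imprinted locus, a control region is methylated in the egg or in the sperm, and the methylated copy keeps that state through early development. In embryonic stem cells and early embryos, the zinc-finger protein ZFP57 binds methylated TGCCGC at these regions and brings TRIM28 and SETDB1, which deposits H3K9me3 on the methylated copy. H3K27ac and H3K4me1 mark active or primed regulatory DNA, and H3K27me3 is the mark of Polycomb repressive complex 2. The libraries here hold both copies of each gene and 1 mark each, so that marks at the same place may lie on different alleles, molecules or cells.

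The lists differed much in length, from 1074 to 65131 peaks. Within H3K27ac, the 3 Oct4 lists held 8574 to 65131 peaks and the 3 Pdgfra lists 4792 to 7128, and replicate 2 of Pdgfra had the shortest H3K9me3 list, with 5322 peaks against 12701 to 29970 in the other 8. Read depth is unknown from peak lists, so that an absent peak was below the calling threshold of that library and not shown to be an absent mark. Differences between populations in number of cells carrying a mark and in amount of mark per cell cannot be told apart in such bulk libraries. The identity of the populations was checked by H3K27ac peaks in the windows of marker genes in at least 2 of 3 libraries. The pluripotency genes Pou5f1, Nanog and Zfp42 had them in Oct4 (3 of 3 genes) and in neither DP nor Pdgfra (0 of 3), and Pdgfra, Gata6, Gata4 and Sox17, genes of the primitive endoderm, in DP and Pdgfra (4 of 4) but also in Oct4 for 3 of 4 genes. H3K27me3 lay at a promoter of 4 of these 4 endoderm genes in Oct4 (8.65% of all genes). It did so for 0 of 4 in DP (13.7% of all genes) and 0 of 4 in Pdgfra (5.63% of all genes). Of the trophectoderm genes, 2 of 3 had H3K27ac in each population, Elf5 in all of them, Cdx2 in DP and Pdgfra and Gata3 in Oct4. The part of such cells in the results was not tested.

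H3K9me3 was listed at promoters of the imprinted genes more often than at those of the annotated genes as a whole, and so, to a lesser extent and in Oct4 and DP, was H3K27me3. A promoter with H3K9me3 in at least 2 of 3 libraries was found for 20 of 38 members in Oct4 (2.46% of all genes), 20 of 38 in DP (2.16% of all genes) and 19 of 38 in Pdgfra (2.03% of all genes). With 1 start site per gene these counts were 14, 15 and 13 (1.62%, 1.30% and 1.27% of all genes). Neighbouring genes that share peaks, such as Peg3 and Usp29, were counted separately. In single libraries the members with the mark numbered 19, 20 and 19 in Oct4, 19, 22 and 20 in DP, and 21, 11 and 20 in Pdgfra, where the value of 11 came from the shortest list. The other 8 libraries thus differed by at most 3 genes. Without that library, 18 members had the mark in both remaining Pdgfra libraries, against 1.84% of all genes.

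**Figure D1:**
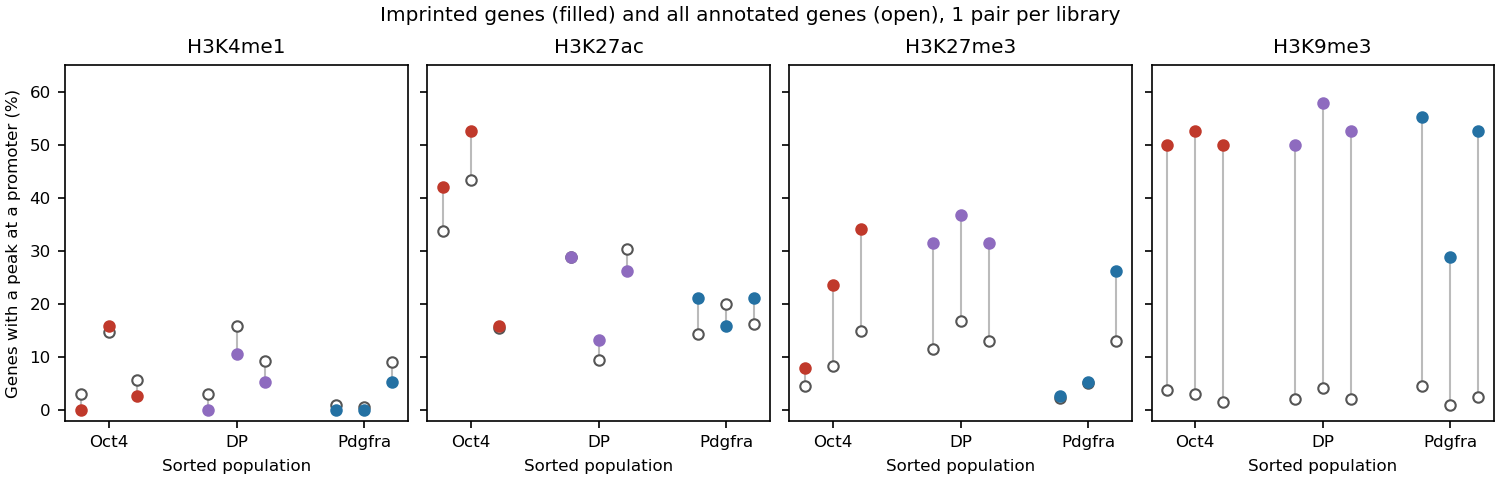
Share of genes with a peak at a promoter (%, vertical axis) for the 38 imprinted genes (filled) and all 32093 annotated genes (open), with 1 pair of points per library, replicates 1 to 3 from left to right in each population. For H3K9me3 the imprinted genes lie between 28.9% and 57.9% and all genes between 1.05% and 4.66%, and for H3K27me3 between 2.63% and 36.8% and between 2.25% and 16.8%, whereas for H3K4me1 and H3K27ac the 2 shares lie nearer to each other.

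The mark lay mostly with genes of 1 kind. A promoter at a control region that is methylated in the egg is known for 19 of the members, and 17 of these 19 had H3K9me3 at a promoter in at least 1 population, 14 of them in all 3 populations. Among the other 19 members, 7 had it in at least 1 population and only Igf2 in all 3. Of all annotated genes, 0.682% had it in all 3 populations, and 2.46%, 2.16% and 2.03% had it in Oct4, DP and Pdgfra taken singly. The share over all genes was not computed for at least 1 population, nor for the counts of 8 or 9 libraries that follow. In 8 of the 19 genes with a maternally methylated region (Airn, Plagl1, Gnas, Nnat, Mcts2, Nap1l5, Inpp5f and Zrsr1) a promoter peak was listed in 9 of 9 libraries. For Airn this count joins 2 annotated start sites, the first with H3K9me3 in 3 Oct4, 2 DP and 2 Pdgfra libraries and the second in 0, 3 and 3. A further 6 (Kcnq1ot1, Peg3, Usp29, Mest, Snrpn and Peg13) had it in 8 of 9, and in 6 of 6 the library without a peak was Pdgfra replicate 2. Many of these genes are expressed from the paternal copy and include long noncoding RNAs that silence their neighbours (Airn, Kcnq1ot1), the zinc-finger genes Peg3 and Plagl1, the splicing gene Snrpn and Mest, a gene of the hydrolase fold. The promoters of Impact, a regulator of translation, and of Zdbf2 carried no H3K9me3 in any of 9 libraries. For Zdbf2 the annotation used has a start 72.9 kb downstream of another in RefSeq, which lies outside the window, and at that upstream promoter H3K9me3 was likewise listed in 0 of 9 libraries and H3K27ac in 2 of 3 Oct4 libraries. H3K9me3 was listed at a promoter of Grb10, the growth factor receptor adaptor, in 2 of 3 Oct4, 1 of 3 DP and 0 of 3 Pdgfra libraries.

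**Figure D2:**
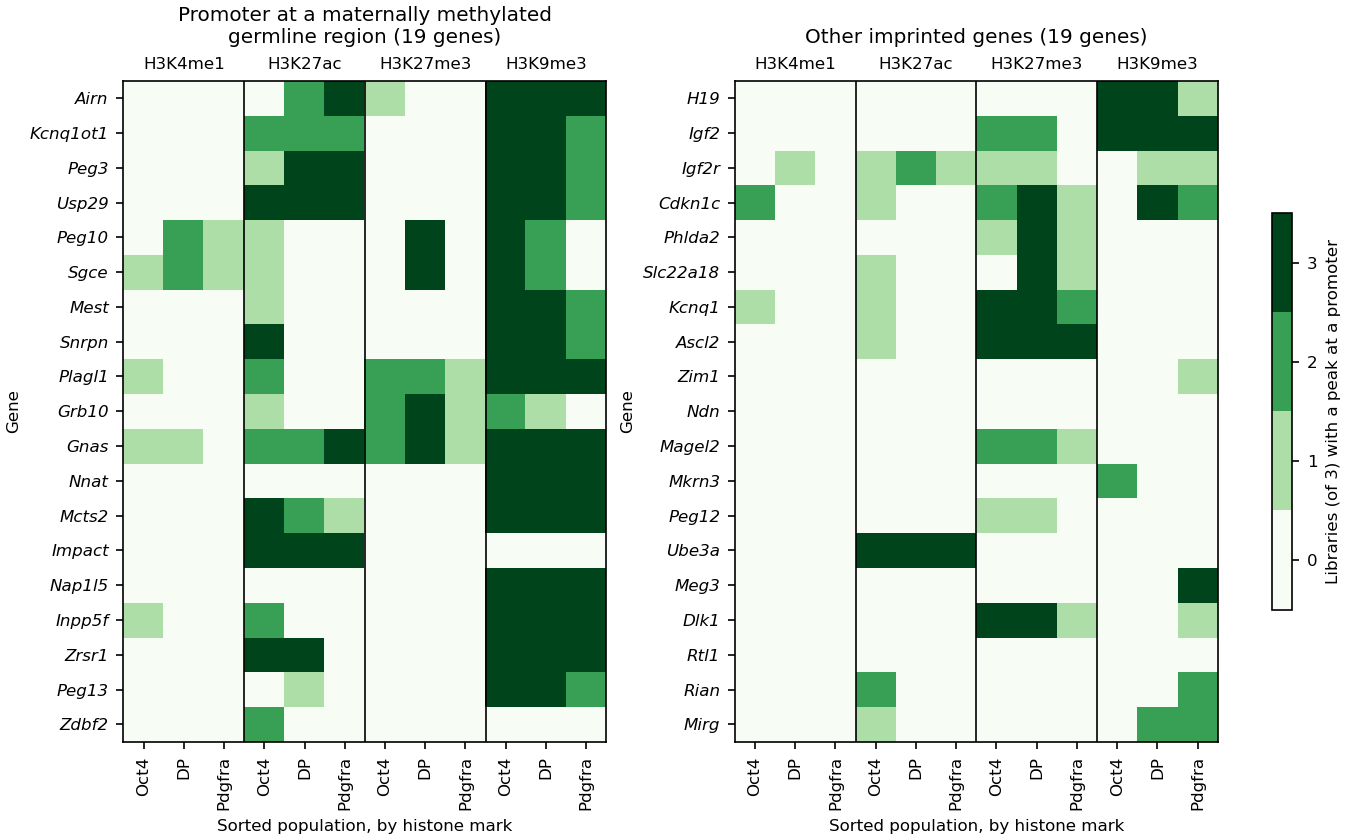
Number of libraries (0 to 3, colour) with a peak at a promoter, for each imprinted gene (rows) in each population and mark (columns). The column block of H3K9me3 is dark for most of the 19 genes with a maternally methylated promoter region (left) and pale for most of the other 19 genes (right). Among the latter, H3K27me3 is the mark found most often in Oct4 and DP, and H3K9me3 in Pdgfra.

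The stretch of DNA shared by the H3K9me3 peaks of most libraries was then located in each window. In 18 members such a stretch was shared by at least 8 of 9 libraries. Neighbouring genes shared it in 3 cases (Airn and Igf2r, Kcnq1ot1 and Kcnq1, Peg3 and Usp29), which left 15 distinct regions with a median length of 1773 bases (663 to 2443). A total of 10 of them were shared by 9 of 9 libraries. That of Plagl1 spanned an internal start site on chromosome 10 (13090099 to 13091384), that of Airn lay 1.22 kb into the transcript within an intron of Igf2r (chromosome 17, 12741888 to 12743176), and that of H19 lay 2.85 kb upstream of the gene (chromosome 7, 142579890 to 142582096), all in GRCm38. Shared stretches were located for the members alone, so their counts have no share over all genes beside them. H3K9me3 anywhere in the window, in at least 2 of 3 libraries, was listed for 19.2% of all genes in Oct4, 16.8% in DP and 14.6% in Pdgfra.

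Sequences from windows of 1101 bases centred on these stretches are shown for Snrpn, Usp29 and Peg3, Airn and Kcnq1ot1, and for Plagl1. H3K9me3 lay with an active mark at a promoter of each of these genes except Plagl1. Peg10 and Sgce, which also carried both, are not shown. They were read from the RefSeq GRCm38.p6 genome on the plus strand as the stretch richest in TGCCGC or its reverse complement GCGGCA, clear of annotated untranslated regions, and both are printed in capitals. Since the stretches were chosen for these letters, their number in them is not a result.
Snrpn, chr7:60004285-60004524: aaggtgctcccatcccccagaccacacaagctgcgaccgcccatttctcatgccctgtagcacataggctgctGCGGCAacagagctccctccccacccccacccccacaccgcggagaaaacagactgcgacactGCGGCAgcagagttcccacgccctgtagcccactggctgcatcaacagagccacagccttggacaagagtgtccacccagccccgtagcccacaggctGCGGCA
Usp29 and Peg3, chr7:6729933-6730172: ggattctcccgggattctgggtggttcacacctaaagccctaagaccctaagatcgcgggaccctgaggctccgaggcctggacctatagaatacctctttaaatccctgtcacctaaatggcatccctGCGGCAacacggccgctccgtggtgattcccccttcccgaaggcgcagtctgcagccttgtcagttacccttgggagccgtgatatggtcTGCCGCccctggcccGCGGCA
Airn, chr17:12742145-12742384: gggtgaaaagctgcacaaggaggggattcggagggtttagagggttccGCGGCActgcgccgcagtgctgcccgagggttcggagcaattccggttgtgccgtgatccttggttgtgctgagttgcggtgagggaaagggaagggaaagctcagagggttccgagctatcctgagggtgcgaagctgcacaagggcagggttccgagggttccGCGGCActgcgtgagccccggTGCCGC
Kcnq1ot1, chr7:143295507-143295746: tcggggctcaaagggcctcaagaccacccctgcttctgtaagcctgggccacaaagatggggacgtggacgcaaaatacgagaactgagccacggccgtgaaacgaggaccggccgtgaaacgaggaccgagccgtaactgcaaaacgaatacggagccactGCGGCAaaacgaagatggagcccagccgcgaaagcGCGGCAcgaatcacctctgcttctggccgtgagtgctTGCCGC
Plagl1, chr10:13091025-13091264: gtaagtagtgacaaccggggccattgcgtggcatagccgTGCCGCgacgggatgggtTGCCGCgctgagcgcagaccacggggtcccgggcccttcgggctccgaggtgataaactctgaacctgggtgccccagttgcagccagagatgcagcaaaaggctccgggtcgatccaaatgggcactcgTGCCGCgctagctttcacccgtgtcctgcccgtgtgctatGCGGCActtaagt
The RefSeq bases before the start site of the retrogenes Mcts2 and Zrsr1 (plus strand) hold 1 match and 0 matches.
Mcts2, chr2:152686898-152687147: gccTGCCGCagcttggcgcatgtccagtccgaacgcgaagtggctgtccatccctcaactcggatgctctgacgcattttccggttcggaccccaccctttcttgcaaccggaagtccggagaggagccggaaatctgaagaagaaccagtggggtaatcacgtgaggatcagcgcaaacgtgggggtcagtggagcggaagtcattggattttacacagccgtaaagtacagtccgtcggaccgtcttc
Zrsr1, chr11:22971755-22972004: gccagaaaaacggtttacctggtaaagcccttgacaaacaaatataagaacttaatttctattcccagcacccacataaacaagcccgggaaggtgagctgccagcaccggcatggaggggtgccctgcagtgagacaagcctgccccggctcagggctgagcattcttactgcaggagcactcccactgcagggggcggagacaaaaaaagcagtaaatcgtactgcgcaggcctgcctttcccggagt

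Over all such windows, TGCCGC on either strand occurred at least once in 9 of the 14 genes with a maternally methylated promoter region and at least 3 times in 7 of 14. Peg3 and Usp29 were counted separately here. Of the promoters of all genes, at the same length, 21.8% held it at least once and 1.31% at least 3 times. At the annotated start sites of the 38 members, instead of the H3K9me3 stretches, these shares were 31.6% and 13.2%. The number of matches was 9 at Snrpn, 6 at Peg3 and Usp29 (1 shared region), 6 at Plagl1, 5 at Airn and 5 at Gnas, and it was 0 at Zrsr1, Mcts2, Nap1l5, Inpp5f and Peg13, although the promoters at the annotated starts of Mcts2 and Nap1l5 held 3 each. The regions of those 14 genes had a median of 4.45 CpG per 100 bases, against 1.73 in the promoters of all genes. TGCCGC itself contains a CpG, and the shares above were matched neither for CpG content nor for the kind of window. A match describes the letters and not binding of a protein. Of the 38 members, 30 had a promoter in the RefSeq table, in which 8.68% of 32851 promoters held the letters before the start site.

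H3K9me3 and an active mark were found at the same promoter in 9 members, and all 9 belonged to the genes with a maternally methylated promoter region. These are counts of genes and not of separate regions, since Peg3 and Usp29 share their peaks, as do Peg10 and Sgce. In Oct4 these were 5 members (0.418% of all genes), with H3K27ac for 5 (0.405% of all genes) and with H3K4me1 for 0 (0.0343% of all genes). In DP they were 8 (0.168% of all genes), with H3K27ac for 6 (0.134% of all genes) and with H3K4me1 for 2 (0.053% of all genes). In Pdgfra they were 4 (0.0748% of all genes), with H3K27ac for 4 (0.0717% of all genes) and with H3K4me1 for 0 (0.00312% of all genes). The counts rest on listed peaks, and with a single threshold of total signal over the libraries of a mark they were 0 in Oct4, 3 in DP and 4 in Pdgfra, while with equal numbers of peaks they were 1, 2 and 3. When peaks were required in 3 of 3 libraries, the count fell from 8 to 3 in DP and from 4 to 0 in Pdgfra. Without replicate 1 or without replicate 3, the Pdgfra count was 0 as well, and without replicate 3 that of DP was 3.

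Kcnq1ot1 and Usp29 were the genes that carried both marks in all 3 populations. Kcnq1ot1 is the noncoding RNA that silences genes around Kcnq1, and its promoter is the control region of that cluster. Each peak was ranked by its total signal within its own list, as a percentile. The H3K9me3 peak at the Kcnq1ot1 promoter stood at the percentiles 90.2, 85.0 and 92.8 in Oct4, at 47.7, 92.4 and 84.5 in DP, and at 82.6 and 63.7 in Pdgfra replicates 1 and 3, with no peak in replicate 2. Its H3K27ac peak stood at 18.5 and 60.8 in Oct4 replicates 1 and 2, at 54.4 and 75.5 in DP replicates 1 and 3, and at 11.4 and 32.3 in Pdgfra replicates 1 and 3. H3K27ac was thus listed in 2 of 3 libraries of each population, and both DP ranks were above both Pdgfra ranks, with the Oct4 ranks spread over both. Over the whole Kcnq1ot1 window H3K27ac covered 10.1%, 17.0% and 6.07% in Oct4, 3.36%, 0% and 4.02% in DP, and 3.601%, 0% and 4.49% in Pdgfra. Every Oct4 share was above every other share, with exact permutation p = 0.0286 and 0.288 after adjustment over the genes tested. Of the 1101 bases of this promoter, 877 in Oct4, 957 in DP and 730 in Pdgfra lay under peaks of both marks in at least 2 libraries each.

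Peg3, a zinc-finger gene, and Usp29, a deubiquitinase gene, start in opposite directions from 1 control region, so that they share their peaks. The H3K9me3 peak at the Usp29 promoter was at the percentiles 97.6, 98.9 and 97.2 in Oct4, 78.2, 98.6 and 96.3 in DP, and 96.2 and 88.6 in Pdgfra replicates 1 and 3. Its H3K27ac peak was at 85.8, 92.8 and 72.8 in Oct4, 86.3, 79.4 and 89.5 in DP, and 68.8, 93.1 and 70.2 in Pdgfra. This was the only imprinted promoter with both marks at which H3K27ac was listed in 9 of 9 libraries. The H3K27ac peak overlapped the Peg3 promoter in 1 of 3 Oct4 libraries, without reaching the start site, and in 3 of 3 of DP and of Pdgfra, and for that reason Peg3 counted as carrying both marks in DP and Pdgfra only. Under peaks of both marks lay 517 bases of the Usp29 promoter in Oct4, 1489 in DP and 1554 in Pdgfra, of 1723.

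**Figure D3:**
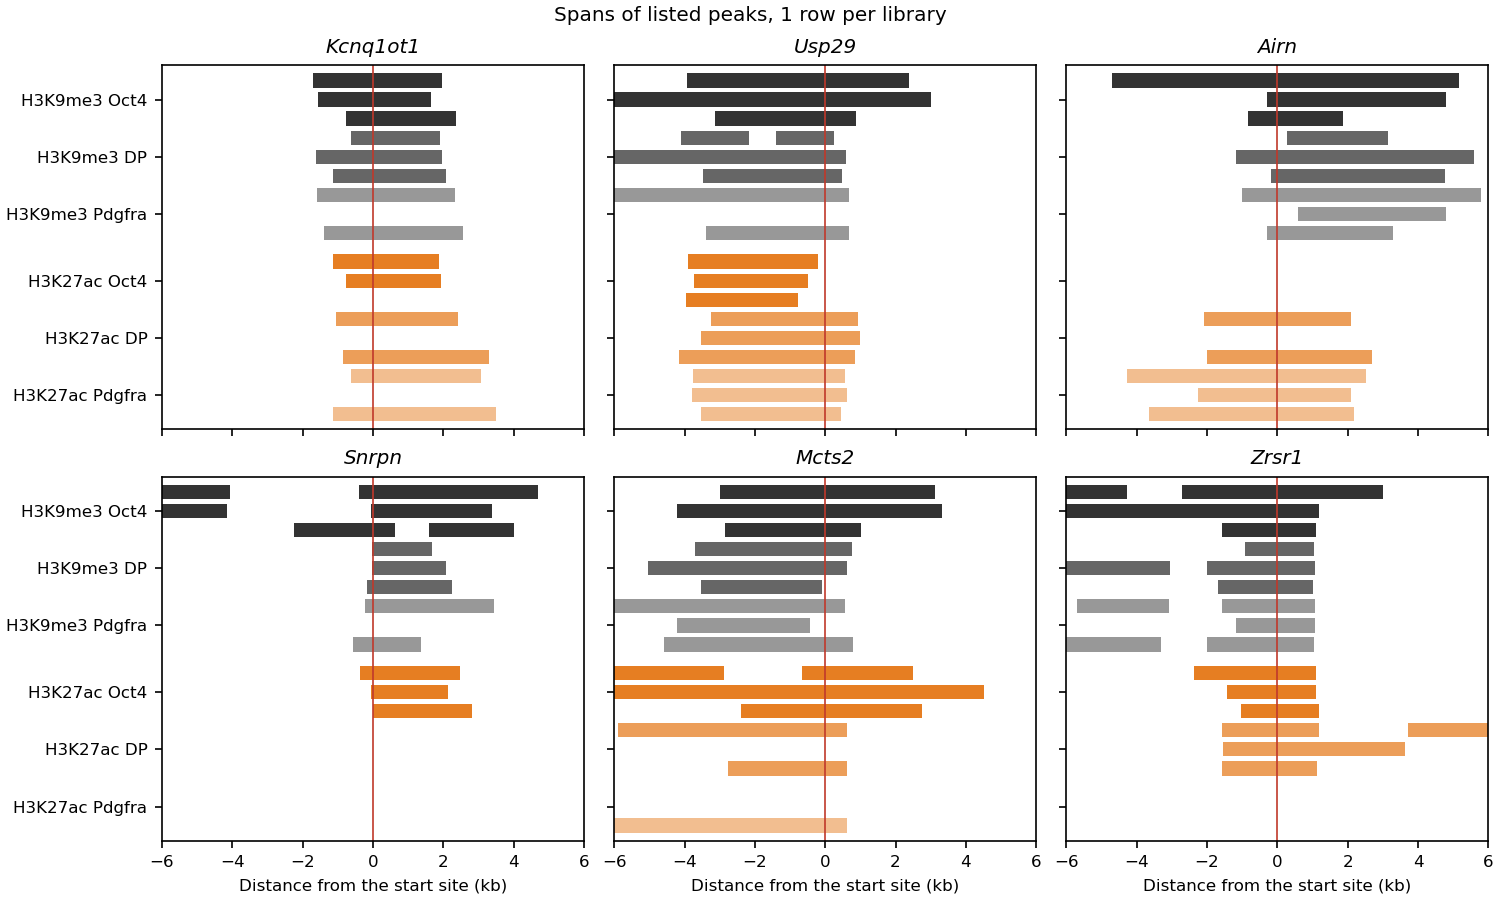
Spans of the listed H3K9me3 (grey) and H3K27ac (orange) peaks by distance from the start site in kb (horizontal axis, red line at 0, downstream to the right), with 1 row per library and replicates 1 to 3 from top to bottom in each population; peaks reaching past 6 kb are cut off at the edge. The spans of both marks lie over the same DNA at Kcnq1ot1, Usp29 and Zrsr1, whereas H3K27ac is listed in Oct4 alone at Snrpn and in DP and Pdgfra alone at Airn.

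H3K27ac at the promoters of Airn and Snrpn was listed in opposite populations. Airn is the noncoding RNA that silences Igf2r, and an H3K27ac peak at its promoter was listed in 0 of 3 Oct4 libraries, at the percentiles 67.1 and 75.2 in DP replicates 1 and 3, and at 69.4, 67.5 and 55.2 in Pdgfra. Within the gene body, H3K27ac was listed in Oct4 too, and it covered 8.15%, 9.97% and 1.47% of the Airn window there. The H3K9me3 peak at the Airn promoter stood at 99.2, 95.7 and 42.6 in Oct4, 98.0 and 95.5 in DP replicates 2 and 3, and 92.6 and 84.5 in Pdgfra replicates 1 and 3. The promoter at the first Airn start, 1188 bases long, lay wholly under H3K27ac in at least 2 libraries of DP and of Pdgfra, and H3K9me3 reached 381 of these bases in DP and 470 in Pdgfra. Snrpn encodes a spliceosome protein, and its promoter is the control region of the Prader-Willi/Angelman cluster. The H3K27ac peak of Snrpn was at 81.7, 62.7 and 63.9 in Oct4 and was listed in none of 6 libraries of DP and Pdgfra. H3K9me3 remained listed at Snrpn in 5 of those 6 libraries, at 39.6, 57.1 and 67.6 in DP and 81.1 and 16.8 in Pdgfra replicates 1 and 3, beside 91.4, 91.9 and 54.3 in Oct4. The stretch of the Snrpn promoter under both marks in Oct4 was 167 bases.

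Mcts2 and Zrsr1 are retrogenes that lie inside the introns of H13 and Commd1. The H3K9me3 peak at Mcts2 was at the percentiles 95.8, 97.8 and 72.8 in Oct4, 88.1, 94.2 and 88.9 in DP, and 93.4, 75.1 and 88.5 in Pdgfra. Its H3K27ac peak ranked at 65.9, 98.9 and 83.1 in Oct4, but at 17.2 and 6.39 in DP replicates 1 and 3 and at 3.39 in Pdgfra replicate 3. The Oct4 values for H3K27ac at Mcts2 did not overlap with the others, although they came from lists of other lengths. At Zrsr1, H3K27ac was at 90.6, 81.5 and 66.7 in Oct4 and at 29.2, 35.3 and 44.0 in DP, with no peak in any Pdgfra library. The H3K9me3 peak of Zrsr1 was at 91.1, 95.8 and 58.8 in Oct4, 70.7, 86.0 and 71.8 in DP, and 20.7, 64.7 and 68.1 in Pdgfra. For both genes every H3K27ac rank in DP was below every rank in Oct4, but the ranks come from lists of unequal length, and the share of the Zrsr1 window covered by H3K27ac was 15.2% to 27.7% in Oct4 and 18.7% to 55.2% in DP. H3K9me3 was listed at both in 9 of 9 libraries.

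The promoter between Peg10, a retrotransposon-derived gene needed for the placenta, and Sgce, encoding epsilon-sarcoglycan, was the only one with H3K9me3 and H3K4me1. It held H3K4me1 at the percentiles 53.4 and 56.6 in DP replicates 2 and 3 and at 82.1 in Pdgfra replicate 3, and a peak at 16.5 in Oct4 replicate 2 overlapped the Sgce side of it. H3K9me3 at Peg10 was at 86.5, 86.9 and 3.13 in Oct4, at 43.7 and 46.9 in DP replicates 2 and 3, and in no Pdgfra library. H3K27me3 was listed at Peg10 in DP alone, at 17.6, 60.5 and 63.7. In DP, 535 bases of the Peg10 promoter and 1236 of the Sgce promoter lay under H3K9me3 and H3K4me1 peaks, so that this region carried 3 marks in DP, each in at least 2 libraries.

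**Figure D4:**
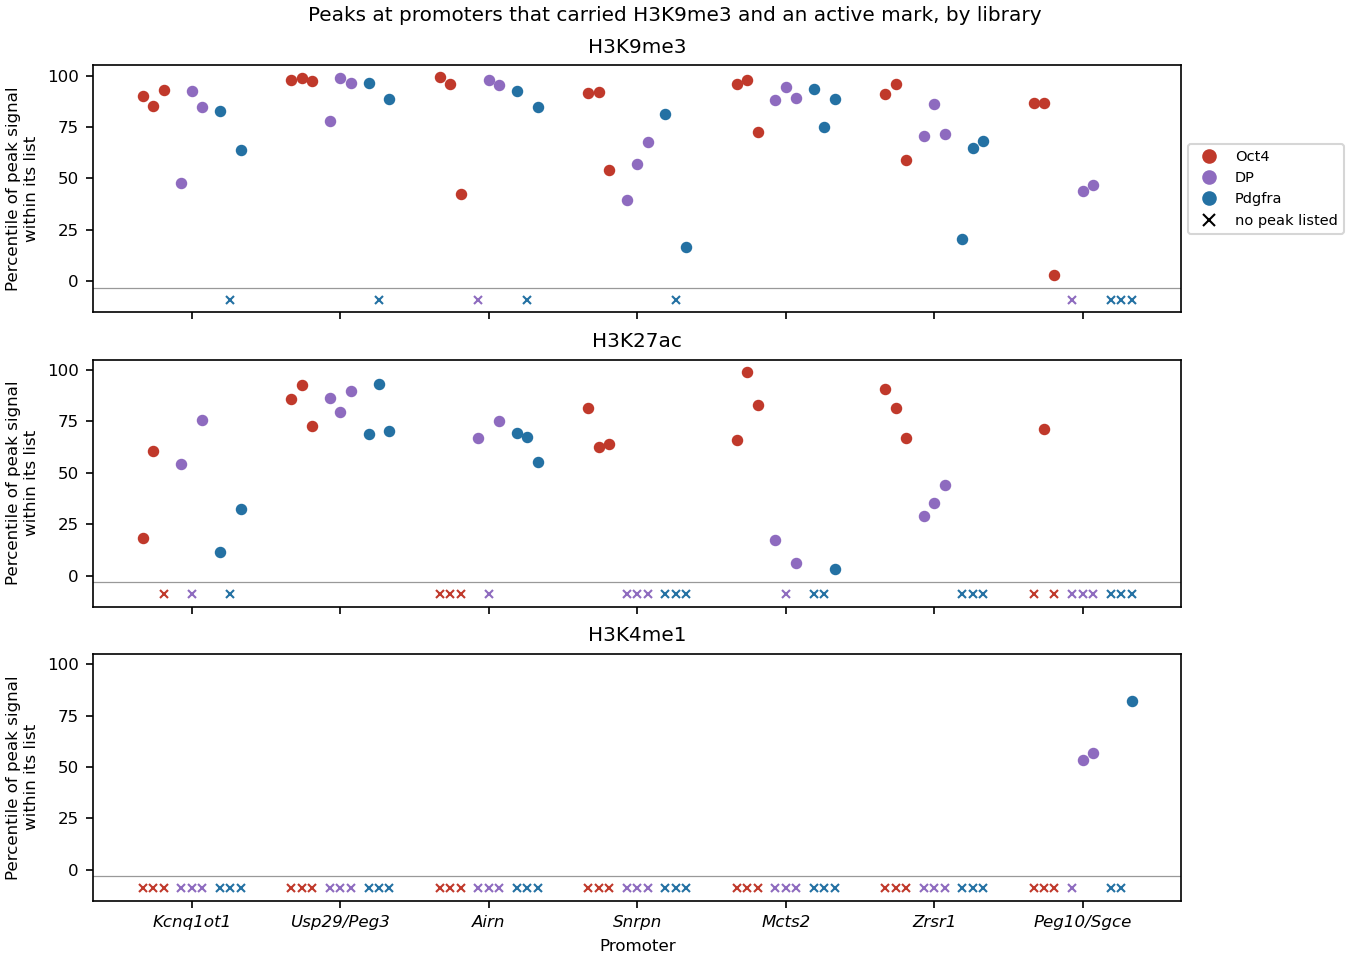
Percentile of the total signal of the promoter peak within its own list (vertical axis, 0 to 100) for 7 promoters with H3K9me3 and an active mark, with 1 point per library coloured by population; crosses under the line mark libraries with no listed peak. H3K27ac at Snrpn is listed in Oct4 alone, and at Mcts2 and Zrsr1 all Oct4 points lie above all DP points.

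At the remaining 8 genes of this kind with H3K9me3, no active mark lay at the same promoter in at least 2 libraries of a population. The median percentile of the H3K9me3 peak was 97.9 at a promoter within Gnas (69.6 to 98.6), which encodes a G-protein subunit and has several promoters, 97.8 at the brain RNA Peg13 (92.5 to 99.2) and 97.1 at the internal promoter of Inpp5f (80.4 to 98.2), a phosphatase gene. It was 95.6 at Nap1l5 (66.5 to 99.9), a gene related to nucleosome assembly proteins, 91.9 at Nnat (72.6 to 98.0), which encodes neuronatin, 89.0 at Mest (52.6 to 98.6) and 77.1 at the internal promoter of Plagl1 (35.2 to 98.1). Grb10, with H3K9me3 in 3 libraries alone, is not among these values. At 3 of the 8 genes H3K27ac lay at another promoter of the gene, downstream for Gnas in 2 Oct4, 2 DP and 3 Pdgfra libraries, downstream for Plagl1 in 2 Oct4 libraries and at the first start of Inpp5f in 2 Oct4 libraries. Impact, which lacked H3K9me3 at its promoters, had H3K27ac there in 9 of 9 libraries, and Zdbf2 in 2 of 3 Oct4 libraries alone.

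The paternally methylated control regions were examined at H19 and Igf2 and at Dlk1 and Meg3. H19 is a maternally expressed growth-restraining RNA and Igf2 the paternally expressed growth factor beside it. The window of H19 was covered by H3K9me3 peaks for 47.3%, 38.8% and 39.7% of its length in Oct4, 41.5%, 40.4% and 38.4% in DP, and 25.8%, 18.5% and 39.6% in Pdgfra. The region was marked in every library, the 2 lowest values were Pdgfra replicates 1 and 2, and the populations overlapped. Within the H19 stretch shared by 9 of 9 libraries, 3 matches to CCGCGNGGNGGCAG, the core of the sites of the insulator protein CTCF, were found on the minus strand, and 0.0374% of the promoters of all genes, at 1101 bases, held such a match on either strand. They are printed on the plus strand with the match in capitals.
H19 upstream, chr7:142580296-142580335: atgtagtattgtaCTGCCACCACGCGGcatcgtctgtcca
H19 upstream, chr7:142580751-142580790: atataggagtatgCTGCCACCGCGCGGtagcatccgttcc
H19 upstream, chr7:142582021-142582060: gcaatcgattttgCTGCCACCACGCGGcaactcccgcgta

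Igf2 carried H3K9me3 upstream of its first start site in 9 of 9 libraries, with a shared stretch of 1441 bases that lay 1.40 kb from the start. H3K9me3 covered 17.7%, 17.4% and 11.7% of the Igf2 window in Oct4, 25.5%, 30.0% and 21.2% in DP, and 31.4%, 24.1% and 25.2% in Pdgfra. Every Oct4 value was below every DP and Pdgfra value. The exact permutation test over the populations gave p = 0.0286 for Igf2, and 0.206 after Benjamini-Hochberg adjustment over the 7711 genes tested. H3K27me3 went the other way at Igf2, with 8.17%, 37.9% and 57.0% of the window covered in Oct4, 0%, 28.7% and 13.9% in DP, and 0% in the 3 Pdgfra libraries. Oct4 and Pdgfra did not overlap in H3K27me3 at Igf2, whereas DP reached into both (exact p = 0.0857). No H3K27ac or H3K4me1 peak was listed in the Igf2 window.

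Meg3, Rian and Mirg are maternally expressed noncoding RNAs of 1 cluster, in which Dlk1, a NOTCH-related ligand, and Rtl1, a retrotransposon-derived gene, are expressed from the paternal copy. In the Meg3 window H3K9me3 covered 0% in the 3 Oct4 libraries, 4.52%, 6.37% and 0% in DP, and 74.4%, 14.3% and 44.5% in Pdgfra. Every Pdgfra value was above every DP value (exact p = 0.0143, adjusted 0.206 over all genes). At the Meg3 start site itself a peak was listed in Pdgfra alone, at the percentiles 96.3, 78.0 and 95.8. Mirg followed with 0% in Oct4, 10.4%, 28.1% and 22.6% in DP, and 85.7%, 0% and 20.6% in Pdgfra (exact p = 0.236). Rtl1 had 7.37%, 0% and 0% in Oct4, 25.5%, 41.0% and 25.5% in DP, and 41.7%, 23.5% and 28.1% in Pdgfra (exact p = 0.0321). Rtl1, whose window lies between those of Meg3 and Mirg, was the member of the cluster at which every DP and Pdgfra library exceeded every Oct4 library. Dlk1 had H3K9me3 in Pdgfra replicates 1 and 3 only, over 49.6% and 20.9% of its window.

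A different picture was seen upstream of Meg3, outside its window. A stretch of 3229 bases on chromosome 12 (109525757 to 109528985), centred 13.6 kb before the Meg3 start, where the control region between Dlk1 and Meg3 lies, was under H3K9me3 peaks in 9 of 9 libraries. The control region was thus listed as marked in all 3 populations. With windows of 20 kb on either side instead of 5 kb, Meg3 had the mark in 9 of 9 libraries.

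**Figure D5:**
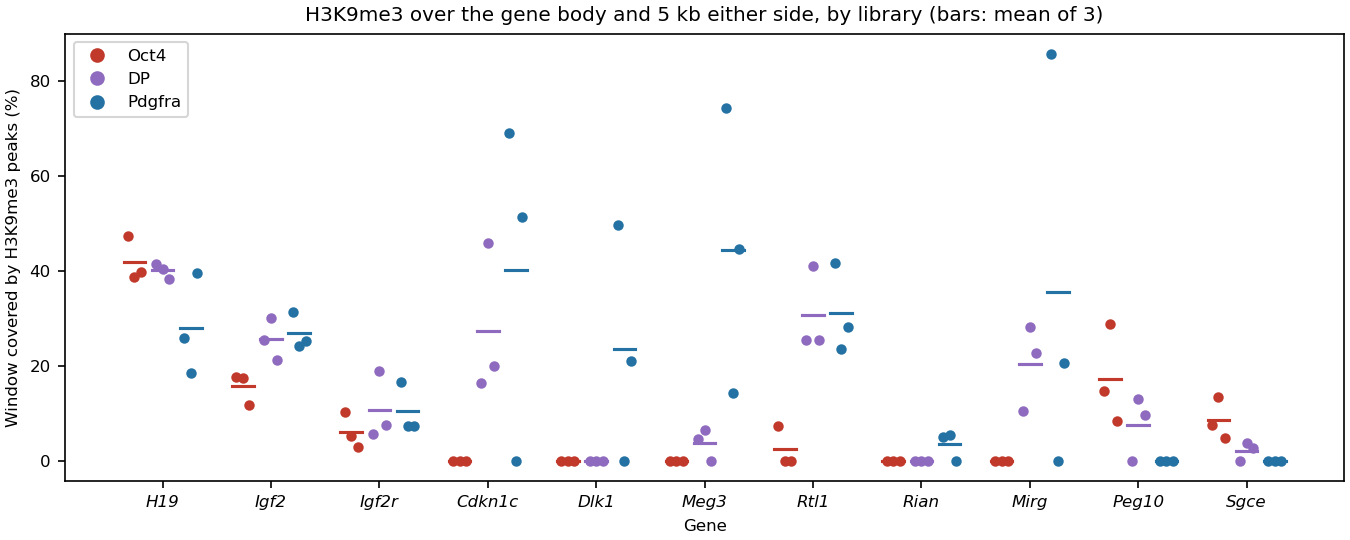
Share of the window (gene body and 5 kb either side) covered by H3K9me3 peaks (%, vertical axis) for 11 imprinted genes, with 1 point per library and a bar at the mean of 3 libraries. H19 is covered in all 9 libraries, Cdkn1c, Dlk1, Meg3, Rian and Mirg in none of the Oct4 libraries, and Peg10 and Sgce in none of the Pdgfra libraries.

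H3K27me3 was found mostly at genes without a maternally methylated promoter. A promoter with this mark in at least 2 libraries was found for 9 members in Oct4 (8.65% of all genes), 13 in DP (13.7% of all genes) and 2 in Pdgfra (5.63% of all genes), of which 6, 8 and 2 were among the 19 other members. The 2 genes marked in all 3 populations were Kcnq1, a potassium channel gene, and Ascl2, a transcription factor of the placenta. In the Ascl2 window H3K27me3 covered 52.9%, 72.6% and 91.6% in Oct4, 93.3%, 91.3% and 60.9% in DP, and 22.9%, 47.4% and 56.0% in Pdgfra. Ascl2 was the only member with the mark in 9 of 9 libraries. Slc22a18, a transporter gene, and Phlda2, a restrainer of placental growth, carried it at a promoter in 3 of 3 DP libraries, and in 0 and 1 of 3 Oct4 libraries and 1 and 1 of 3 Pdgfra libraries. In the whole window of Slc22a18 it was listed in 8 of 9 libraries, with 0%, 16.8% and 71.9% covered in Oct4, the whole, the whole and 78.3% in DP, and 6.67%, 22.7% and 90.3% in Pdgfra. The 2 Pdgfra libraries with few such genes had 1143 and 2841 peaks, and Pdgfra replicate 3, with 6151 peaks, listed H3K27me3 at 10 members.

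Cdkn1c, which encodes the cell-cycle inhibitor p57, lay under both repressive marks. H3K27me3 covered 0%, 86.6% and the whole of its window in Oct4, the whole, 98.8% and 85.1% in DP, and 0%, 0% and 85.0% in Pdgfra. H3K9me3 covered 0% in the 3 Oct4 libraries, 16.3%, 45.8% and 19.8% in DP, and 69.0%, 0% and 51.4% in Pdgfra. Both repressive marks were listed at the Cdkn1c promoter in 3 of 3 DP libraries, and H3K9me3 in no Oct4 library (exact p over the populations 0.129). H3K4me1 at this promoter was listed in Oct4 replicates 2 and 3 alone, with 32.5% and 24.7% of the window covered. At Dlk1, H3K27me3 covered 15.8%, 45.3% and 73.8% in Oct4, 83.3%, 45.4% and 54.5% in DP, and 0%, 0% and 64.7% in Pdgfra, ranges that overlapped between all populations.

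H3K27ac was split between the groups of members, although over all members its counts were near the shares of all genes. H3K4me1 lay at the promoters of too few members for the groups to be compared. H3K27ac lay at a promoter of 12 members in Oct4 (29.6% of all genes), 10 in DP (26.2% of all genes) and 7 in Pdgfra (16.2% of all genes). Of these, 10, 8 and 6 were among the 19 genes with a maternally methylated promoter region, and 2, 2 and 1 among the other 19. H3K4me1 did so for 1 member in Oct4 (5.7% of all genes), 2 in DP (7.55% of all genes) and 0 in Pdgfra (1.2% of all genes). Ube3a, the ubiquitin ligase gene of the Angelman region, and Impact had H3K27ac at a promoter in 9 of 9 libraries. Igf2r, the receptor that clears IGF2, had it in 1 Oct4, 2 DP and 1 Pdgfra libraries. Of the small genes near Snrpn, Mkrn3 had H3K9me3 at its promoter in 2 Oct4 libraries alone, Magel2 had H3K27me3 in 2 Oct4, 2 DP and 1 Pdgfra libraries, and Peg12 had H3K27me3 in 1, 1 and 0. Rian had H3K9me3 in 2 Pdgfra and H3K27ac in 2 Oct4 libraries. Ndn and Rtl1 had no promoter peak of any mark in any library, and no member lacked window peaks altogether.

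Presence of a mark in the window in 3 of 3 libraries of 1 population and 0 of 3 of another was found for 4 of 38 members with H3K4me1 (5.47% of all genes), 3 with H3K27ac (5.92% of all genes), 3 with H3K27me3 (3.98% of all genes) and 5 with H3K9me3 (4.95% of all genes). With equal numbers of peaks in the lists, or with a common signal threshold, each of these counts was lower or the same. For H3K27ac these were Snrpn, Zrsr1 and Zim1. H3K27ac covered 8.27%, 5.23% and 7.96% of the window of Zim1, a zinc-finger gene next to Peg3, in Oct4 and 0% in the other 6 libraries. It covered 2.92%, 3.90% and 1.68% of the Snrpn window in Oct4 and 0% elsewhere. At Zrsr1 it covered 27.7%, 19.7% and 15.2% in Oct4, 55.2%, 35.7% and 18.7% in DP and 0% in Pdgfra. The exact p was 0.0357 for Zim1 and for Snrpn and 0.0107 for Zrsr1, each 0.288 after adjustment over 13227 genes. Peaks in 3 of 3 libraries of 1 population and in no other library always give 0.0357 in this test. The 3 genes were listed for such presence and absence, so these p-values are no separate support for it.

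For H3K27me3 the genes were Peg10, Sgce and Igf2. The Peg10 window was covered for 65.4%, 66.3% and 30.5% in DP and 0% in the other 6 libraries (exact p = 0.0357, again the value that such a pattern always gives). Sgce, which shares those peaks, had 6.99%, 9.10% and 5.64% in DP, 8.46% in Oct4 replicate 3 and 0% elsewhere. For H3K9me3 the genes were Peg10, Sgce, Cdkn1c, Meg3 and Mirg. H3K9me3 covered 14.7%, 28.7% and 8.35% of the Peg10 window in Oct4, 0%, 12.9% and 9.68% in DP and 0% in Pdgfra. It covered 7.52%, 13.4% and 4.80% of the Sgce window in Oct4, 0%, 3.61% and 2.71% in DP and 0% in Pdgfra. Within these windows Peg10 and Sgce thus held H3K9me3 in Oct4 and none in Pdgfra, the reverse of Cdkn1c, Meg3 and Mirg. Every Oct4 value of Sgce was above every DP value (exact p = 0.0143, adjusted 0.206). Sgce was listed for peaks in Oct4 and none in Pdgfra, so this p is no separate support for that difference. With 20 kb on either side, H3K9me3 was listed at Peg10 and at Meg3 in 3 of 3 libraries of each population. Sgce then had it in 3 Oct4, 2 DP and 2 Pdgfra libraries, Mirg in 1, 3 and 3, and Cdkn1c in 0, 3 and 3.

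H3K4me1 met this criterion at 4 genes. Usp29 had it in an intron 47.3 kb from the gene start, over 0.79%, 2.77% and 2.02% of the window in DP, 0.79%, 1.28% and 6.82% in Pdgfra and 0% in Oct4. Kcnq1 had it in an intron 17.6 kb from the start, with 1.02%, 4.49% and 2.13% of the window covered in Oct4, 0% in DP and 1.27% in Pdgfra replicate 3. Gnas had it in DP at the upstream edge of the window, in a stretch cut by that edge and centred 4.33 kb upstream. There, 1.86%, 7.98% and 2.54% of the window were covered, beside 13.8% in Oct4 replicate 2 and 0% elsewhere. Impact had 2.59%, 3.10% and 1.67% in DP, 1.87% in Pdgfra replicate 3 and 0% elsewhere, downstream of the gene at the window edge. With 20 kb on either side, H3K4me1 was listed at Gnas in 3 Oct4, 3 DP and 0 Pdgfra libraries. It was then listed at Usp29 in 1, 3 and 3, which no longer met the criterion, at Kcnq1 in 3, 0 and 1 and at Impact in 0, 3 and 2. The stretches shared by most libraries were away from promoters in all 4 genes, although single libraries listed H3K4me1 at a promoter of Gnas (1 Oct4, 1 DP) and of Kcnq1 (1 Oct4), and 2 of the 3 Pdgfra lists of H3K4me1 were short, with 1723 and 1074 peaks.

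Across the 3 populations, the exact permutation test of covered share called 0 of the 9 members tested for H3K4me1 (0% of all genes), 0 of 17 for H3K27ac (0% of all genes), 0 of 16 for H3K27me3 (0% of all genes) and 0 of 26 for H3K9me3 (0% of all genes) at an adjusted p of 0.05. At an unadjusted p of at most 0.05 were 0, 5, 1 and 4 members, against 963 of 8038, 1836 of 13227, 716 of 6272 and 1492 of 7711 genes, or 11.98%, 13.9%, 11.4% and 19.3% of those tested. The smallest adjusted p of any gene was 0.349, 0.288, 0.383 and 0.206, and the smallest p that 3 libraries in each population allow is 0.00357. No difference between the populations at an imprinted gene therefore passed the test, and the differences above are those of listed peaks in these libraries. An exact permutation test of any 2 populations alone could not go below p = 0.1.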

How the data were processed

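Histone marks in 3 sorted nEnd populations were measured by CUT&Tag. Per the labels, the authors used bcl2fastq 2.19.1, Bowtie2, SAMtools 1.12, deepTools, SEACR and bedtools 2.26.0 with mm10 (GRCm38). The deposited files are SEACR peak lists, called library by library at the stringent setting, against an IgG control, each peak with a total signal and a maximum signal in whole-number coverage that showed no scaling to depth. Each group held 3 replicates that the study calls biological, all from 1 reporter line.

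Genes and start sites came from GENCODE vM21 and sequences from RefSeq GRCm38.p6. Peak overlap of at least 1 base with windows and promoters was computed in Python 3.11.15 with NumPy 2.4.6 and pandas 2.3.3 and checked against bedtools 2.31.1 on simulated data. A gene counted as marked with a peak in at least 2 of 3 libraries. Covered share was tested by the exact permutation test of the F statistic over libraries, which has no direction, for genes with a peak in at least 3 of 9 libraries, with Benjamini-Hochberg adjustment over all of them. Signal was used only for ranks within a list and for the alternative with a common threshold. The members and gene lists were chosen with earlier results of these data known. Members were named with values where they carried H3K9me3 and an active mark at 1 promoter, where a mark was in 3 of 3 libraries of a population and 0 of 3 of another, and for H19, Igf2, Meg3, Dlk1 and Cdkn1c whatever their values. Rtl1, Ascl2 and other members with single values were named after these were seen. Alternatives were equal list lengths, a common signal threshold, other windows and promoters, other library minimums, a replicate block and leaving out replicates.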

Additional observations from a re-analysis of the deposited data

How the results depend on the processing

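Of 67 recomputed counts of members with listed peaks, 43 stayed within 1.5 times the reported count and 24 did not. The number of members with a mark in all libraries of 1 population and none of another was 4 for H3K4me1, 3 for H3K27ac, 3 for H3K27me3 and 5 for H3K9me3. With equal numbers of peaks it was 1 for H3K4me1, 1 for H3K27me3 and 2 for H3K9me3. With a common threshold of total signal it was 0 for H3K4me1, 1 for H3K27ac and 2 for H3K9me3. At promoters only it was 0 for H3K4me1, and with 20 kb on either side 2 for H3K9me3. Leaving out replicate 1, 2 or 3 gave 4 to 9 for H3K4me1, 3 to 12 for H3K27ac and 3 to 12 for H3K27me3, the highest being without replicate 1 for H3K4me1 and without replicate 3 for the others. Members with H3K9me3 and an active mark at 1 promoter were 5 in Oct4, 8 in DP and 4 in Pdgfra. With equal numbers of peaks they were 1 in Oct4 and 2 in DP, with a common threshold 0 in Oct4 and 3 in DP, with peaks in at least 1 of 3 libraries 9 in Oct4, with peaks over at least 50% of the promoter 3 in Oct4, and with peaks in 3 of 3 libraries 3 in DP and 0 in Pdgfra. Leaving out a replicate gave 3 to 5 in DP (3 without replicate 3) and 0 to 4 in Pdgfra, where 0 was found without replicate 1 and without replicate 3. The cause of these changes was not tested. Chosen after seeing the data, leaving out the shortest H3K27ac list (DP replicate 2) gave 8 in DP, and leaving out the shortest H3K9me3 list (Pdgfra replicate 2) gave 4 in Pdgfra. Deviations of same-numbered libraries from their group means correlated from -0.448 to 0.489 over the marks, and those of libraries with other numbers from -0.551 to 0.526. For H3K27me3 the same-numbered values reached higher, from -0.303 to 0.488 against -0.489 to 0.264. Its replicate 1 also had the shortest list in each population (1629, 3798 and 1143 peaks). For H3K27ac and H3K9me3 the same-numbered ranges lay lower than the others. Pairing by replicate number thus stayed unsettled, and such correlations cannot show whether libraries came from the same culture or sort. With a replicate block the test of covered share called 0 members for each mark, with 0.0278 as the smallest p that the block allows. With 2 replicates left, the smallest p is 0.0667, so that test could not pass. Peak lists without read counts limit all absences to the calling threshold.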

Other observations

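Among 12 factors that keep or set imprints, H3K27ac lay at a promoter in at least 2 of 3 libraries for 8 in Oct4, 9 in DP and 5 in Pdgfra (29.6%, 26.2% and 16.2% of all genes), and H3K9me3 for 2, 2 and 1 (2.46%, 2.16% and 2.03%). Zfp57, the zinc-finger protein of the methylated control regions, had H3K27ac at its promoter in 3 Oct4, 2 DP and 0 Pdgfra libraries, and H3K27ac covered 27.6%, 58.7% and 23.0% of its window in Oct4, 10.9%, 0% and 12.3% in DP and 0% in Pdgfra (exact p = 0.0143, adjusted 0.288). Zfp445, a second such zinc-finger gene, carried H3K9me3 at a promoter in 9 of 9 libraries, and Ctcf had H3K27ac there in 9 of 9. The de novo methyltransferase gene Dnmt3a had H3K27ac at its promoter in 3 Oct4, 1 DP and 0 Pdgfra libraries.

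Of 26 further imprinted genes in the annotation, 2 had H3K9me3 at a promoter in Oct4, 2 in DP and 3 in Pdgfra (2.46%, 2.16% and 2.03% of all genes), and 8, 11 and 6 had H3K27me3 (8.65%, 13.7% and 5.63%). Blcap and Commd1, which had H3K9me3 at a promoter in 9 of 9 libraries, each have a promoter that overlaps one of Nnat and of Zrsr1, respectively. Of 5 genes with imprinting that depends on H3K27me3 from the egg (Gab1, Sfmbt2, Jade1, Smoc1 and Slc38a4), H3K27me3 was at a promoter in at least 2 of 3 libraries for 1 in Oct4, 2 in DP and 0 in Pdgfra, beside the same shares of all genes. Slc38a4, an amino acid transporter gene, had H3K9me3 at a promoter in 3 of 3 Pdgfra libraries and in 0 of 6 others, and H3K27ac at a promoter in 2 Oct4 libraries alone. The genes named in these paragraphs were chosen after their values were seen.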
